A study of Homo sapiens with 18 samples.

Results

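A673 is an established Ewing sarcoma cell line that carries EWSR1-FLI1, the oncogenic fusion protein of this tumour, in which part of EWSR1 is joined to the DNA-binding domain of FLI1. Sites where histone H2A carries a single ubiquitin (H2Aub1) were mapped in it by chromatin immunoprecipitation and sequencing (ChIP-seq). The domains described here are broad H2Aub1 regions at which no RING1B peak was called. They were chosen by the H2Aub1, RING1B and EWSR1-FLI1 peak lists: overlapping H2Aub1 peaks of replicates 1 and 2 were merged, and 6408 merged regions held a peak of each replicate. Of the 6067 on autosomes, 743 were wider than 5 kb. RING1B peaks of either replicate touched 201 of these (45 of them also EWSR1-FLI1), EWSR1-FLI1 alone touched 12, and the remaining 530 are the domains. They made up 71.3% of the wide regions, 8.74% of the autosomal regions and 21.7% of the length those regions covered (3.90 of 18.0 Mb). A further 27 regions on chromosome X would have met every criterion but the autosomal one.

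The series holds 18 samples of this line, of which 5 were analysed here through their peak lists: RING1B in replicates 1 and 2, H2Aub1 in replicates 1 and 2, and EWSR1-FLI1 in 1 sample. The cells in these 5 samples were untreated and grown in the same medium, per the labels. The labels do not say whether replicates came from separate cultures, so differences between them may be technical. Each peak has a position and a score given by the authors, whose scale is not stated. Depth is unknown, because a peak list carries no read counts.

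RING1B is a catalytic subunit of Polycomb repressive complex 1 (PRC1), the complex that places ubiquitin on histone H2A. Canonical forms of the complex carry a CBX protein that reads the H3K27me3 mark, whereas variant forms carry RYBP or YAF2 and account for most of the ubiquitin placed. RING1A is a paralog of RING1B with the same activity. H2Aub1 is best known over silent developmental genes, where it forms broad domains together with the enzyme, and it is also found at lower level across the genome. A missing RING1B peak means only that no enrichment passed the authors' threshold, and both RING1B lists start at a score of 50.

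Every list had unusually wide peaks in a stretch of chromosome 11 from 26 to 48 Mb (hg19), which held 74 of the 530 domains (13.96%) on 0.764% of the autosomal length. There the median H2Aub1 peak was 2841 bp wide in replicate 1 and 3171 bp in replicate 2, against 1106 and 1110 bp on the rest of the autosomes. RING1B peaks had medians of 2301 and 2483 bp there, against 1025 and 1031 bp elsewhere, and the 23 EWSR1-FLI1 peaks had a median of 2084 bp against 983 bp. Peaks were thus 2.12 to 2.86 times wider in all 5 lists. Scores did not share this pattern: medians inside and outside were 97.9 and 85.8 for H2Aub1 replicate 1, and 84.5 and 93.7 for EWSR1-FLI1. The bounds of the stretch were set after these widths were seen. What widens the peaks was not tested, and since width chose the domains, results are given with and without these 74.

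**Figure D1:**
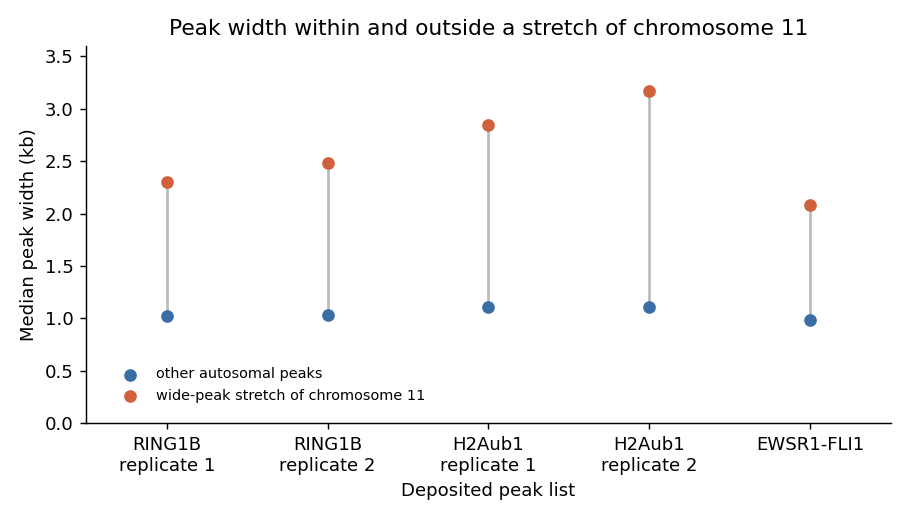
Median peak width in kb (vertical axis) of the 5 deposited lists (horizontal axis), for peaks inside the stretch of chromosome 11 and for all other autosomal peaks. In every list the peaks of the stretch are wider, from 2.12 times for EWSR1-FLI1 to 2.86 times for H2Aub1 replicate 2.

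The domains were mostly 5 to 8 kb wide. Widths ran from 5010 to 26576 bp with a median of 6479 bp (quartiles 5589 and 8155 bp), 66 domains (12.5%) exceeded 10 kb and 14 exceeded 15 kb. Outside the stretch of chromosome 11 the median was 6300 bp and the widest domain measured 18811 bp, and inside it the median was 7239 bp. For the 201 wide regions with RING1B the median was 7820 bp, and 34.3% were above 10 kb. Width was part of how both classes were chosen, and a wider region has more bases that a RING1B peak could touch, so this is a description. At the threshold itself, the narrowest domains measured 5010, 5017 and 5017 bp, and the widest regions that failed on width alone measured 4999, 4995 and 4990 bp.

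The width rested mainly on H2Aub1 replicate 1, and replicate 2 usually covered the same domain in pieces. This was not particular to the domains. Of the 201 wide regions with RING1B, 88.1% held a replicate 1 peak over 5 kb and 31.3% a replicate 2 peak over 5 kb. Replicate 2 had 1 peak in 20.9% of them, and in 22.4% both outer edges fell within 500 bp between replicates. In replicate 1, 375 of the 530 domains (70.8%) were a single peak, and 421 (79.4%) held a peak that alone exceeded 5 kb. Replicate 2 had 1 peak in 173 domains, 2 peaks in 202 and 3 or more in 155, and 91 domains (17.2%) held a replicate 2 peak over 5 kb. These were 43 of the 74 domains in the stretch of chromosome 11 (58.1%) and 48 of the 456 outside it (10.5%). Replicate 2 had 1 peak in 81.1% of the domains inside and 24.8% of those outside. A peak over 5 kb in both replicates was present in 84 domains (15.8%), 39 of them in the stretch of chromosome 11. In another 102 domains neither replicate had one, so that the width arose from joining shorter peaks. Peaks of replicate 1 covered a median of 99.8% of the domain and those of replicate 2 a median of 69.6%. Replicate 2 covered under 50% of 95 domains. Both outer edges fell within 500 bp of each other between replicates in 119 domains (22.5%), and across the 530 domains the spans of both replicates were correlated (Pearson r = 0.849, Spearman rho = 0.733, a description, since the domains share libraries).

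The domains ranked high in score among reproducible H2Aub1 regions, though below wide regions with RING1B, and the stretch of chromosome 11 was an exception. The highest score in a domain ranged from 50.85 to 3100 in replicate 1 (median 746) and from 50 to 1799.4 in replicate 2 (median 223). Among all reproducible H2Aub1 regions, the median domain stood at the 92.0th percentile of scores in replicate 1 and the 87.8th in replicate 2. For the 201 wide regions with RING1B the median percentiles were 95.35 in replicate 1 and 95.04 in replicate 2. Of these 201 regions, 110 (54.7%) had scores in the highest 10% in both replicates, and 0 were below the median in both. In 188 domains (35.5%) the score was in the highest 10% in both replicates, and in 13 it was below the median in both. Of these 13, 11 lay in the stretch of chromosome 11, where the median percentiles were 55.6 and 73.0, against 93.4 and 89.7 for the 456 other domains. Across the 456 domains outside the stretch, width went with score (Spearman rho = 0.457 and Pearson r = 0.422 in replicate 1, 0.456 and 0.468 in replicate 2). Across the 74 inside it the values were 0.134 and 0.127 in replicate 1 and 0.230 and 0.255 in replicate 2. These are descriptions, because widths and scores come from the same peak calls.

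**Figure D2:**
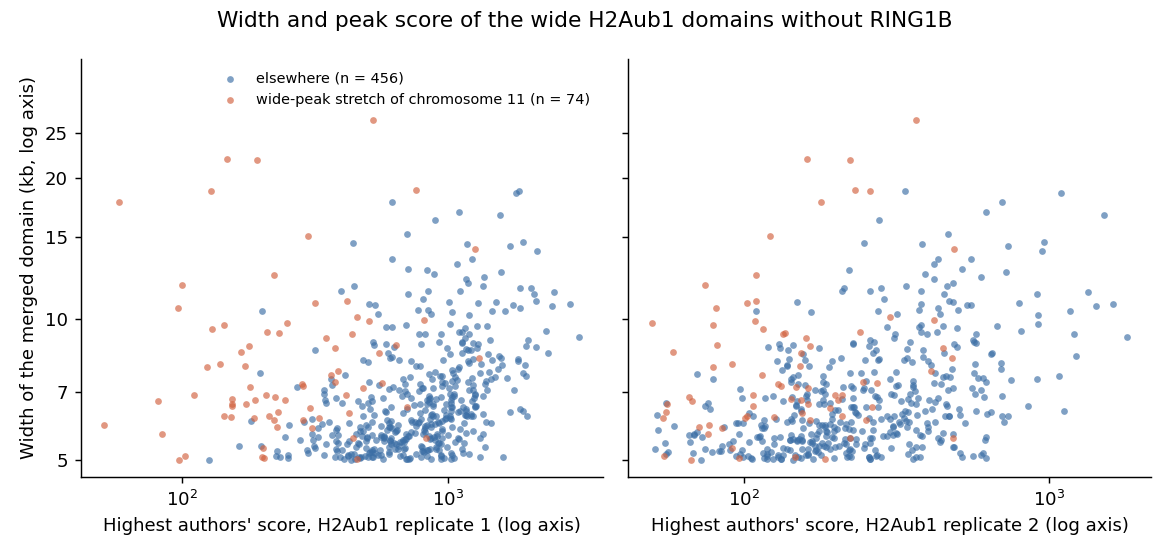
Width of each domain in kb (vertical log axis) against the highest authors' score of its peaks in H2Aub1 replicate 1 (left) and replicate 2 (right), both on log axes, with 1 point per domain. The 74 domains of the chromosome 11 stretch lie at lower scores (median 225 in replicate 1) than the other 456 (median 824), and 6 of the 10 widest domains are among them.

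The widest domain lay on chromosome 11 from 44990790 to 45017365 in band 11p11.2 and measured 26576 bp. Its scores were 520.16 in replicate 1 and 366.66 in replicate 2, and the nearest RING1B peak was 149642 bp away. The next 2 in width, at 44922480 to 44944498 (22019 bp) and 43588192 to 43610031 (21840 bp), lay in the same band with scores of 147.43 and 161.34 and of 190.4 and 221.8. The other domains of the 10 widest in 11p11.2 lay at 45675354 to 45694230 (18877 bp), 44634153 to 44652911 (18759 bp) and 44894201 to 44912008 (17808 bp). The last of these had a score of only 57.62 in replicate 1, at the 3.84th percentile, although its single replicate 1 peak was 17763 bp wide.

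The other 4 of the 10 widest domains lay outside the stretch, with scores of 612.23 to 1849.28 in replicate 1 and 338.39 to 1096.53 in replicate 2, against medians of 824 and 244 for all 456 domains there. The domain on chromosome 14 from 104604998 to 104623808 (18811 bp, band 14q32.33) had scores of 1849.28 and 338.39 and was made of 2 peaks in replicate 1 and 7 in replicate 2. A second domain of chromosome 14, from 91742370 to 91760969 (18600 bp, 14q32.11), had scores of 1802.1 and 1096.53, and an EWSR1-FLI1 peak lay 11769 bp from it. On chromosome 12 a domain of 17785 bp ran from 113900343 to 113918127 (12q24.13, scores 612.23 and 702.17). The domain on chromosome 7 from 27275374 to 27292346 (16973 bp, 7p15.2, scores 1097.12 and 623.65) completed the 10 widest, with a RING1B peak 23191 bp away. Replicate 2 peaks covered 71.7 to 94.4% of the length of these 4. Just outside the 10 widest, the domain on chromosome 19 from 1744546 to 1761194 (16649 bp, 19p13.3) combined width with high scores of 1563.68 and 1519.77. A single replicate 1 peak spanned all of it.

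The domains with the lowest mean score percentile over both replicates, singled out after their values were seen, all lay in 11p11.2. On chromosome 11 the domain from 44005571 to 44010681 (5111 bp) had scores of 102.38 and 54.64. The domain from 44015604 to 44021544 (5941 bp) had scores of 50.85 and 76.59, and that from 44479232 to 44485912 (6681 bp) had 80.85 and 67.3. Outside the stretch no domain scored below 126.12 in replicate 1, although in replicate 2 scores went down to 51.08.

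The 5 domains with the highest mean score percentile over both replicates were wider than the median domain, were 1 peak in replicate 1 and lay within 10 Mb of a chromosome end. In a single replicate, domains farther from an end reached scores above some of these, up to 2378.28 in replicate 1 and 1096.53 in replicate 2. The domain on chromosome 10 from 134596408 to 134605589 (9182 bp, 10q26.3) had the top replicate 2 score of the whole H2Aub1 list, 1799.4, and 3100 in replicate 1, and its midpoint lay 933750 bp from the chromosome end. It was followed by domains on chromosome 9 from 133533374 to 133544133 (scores 2868.98 and 1620.92) and from 139087344 to 139098001 (2459.12 and 1430.61). The domains on chromosome 4 from 1394359 to 1405812 (2505.17 and 1344.28) and on chromosome 20 from 61634594 to 61642157 (1966.35 and 1077.38) completed the top 5. Widths were 7564 to 11454 bp, and each was 1 peak in replicate 1 and 1 or 2 peaks in replicate 2, which covered 89.7 to 96.9% of it. The nearest RING1B peaks were 85206 to 647186 bp away for these 5 domains.

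Domains lay near chromosome ends more often than wide H2Aub1 regions with RING1B. Within 10 Mb of an end, by midpoint, lay 233 of 530 domains (44.0%, 95% Wilson interval 39.8 to 48.2%) and 41 of 201 wide regions with RING1B (20.4%, 15.4 to 26.5%). The difference was 23.6 percentage points (16.2 to 30.1, Newcombe interval), with an odds ratio of 3.06 (two-sided Fisher's exact test, p = 2.52e-09, Benjamini-Hochberg adjusted p = 1.01e-08 over 4 position tests). The share was higher for domains on 15 of the 20 autosomes that held both classes, lower on 3 and equal on 2. Without the stretch of chromosome 11 the shares were 51.1% of 456 domains and 21.5% of 191 regions (odds ratio 3.82, Fisher's exact test, adjusted p = 6.44e-12). Every region of the stretch lies more than 10 Mb from an end. The stretch held 13.96% of the domains and 4.98% of the wide regions with RING1B. Leaving it out therefore had to raise this odds ratio, and its bounds were set after the widths were seen. Regions are not independent of their neighbours, so intervals and p-values cover counting error over regions only. The members and comparisons were chosen with earlier results of these data known, which the p-values do not account for. With H2Aub1 replicate 2 as the only list the odds ratio was 1.35 (30.6% of 111 domains and 24.6% of 61 regions, Fisher's exact test, adjusted p = 0.481), and it was 2.995 when the stretch was left out as well (Fisher's exact test, adjusted p = 0.0305). With a peak over 5 kb required in each replicate it was 1.57 (Fisher's exact test, adjusted p = 0.273), and 4.28 without the stretch (adjusted p = 0.00405). Both of these rises were fixed in the same way, as the stretch again held a larger share of the domains than of the wide regions with RING1B. The adjusted p-values without the stretch are therefore descriptions.

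Against the 4839 narrower regions that also lacked peaks of both proteins, the difference was small. It depended on the stretch of chromosome 11 as bounded from 26 to 48 Mb. Of the narrower regions, 1931 lay within 10 Mb of an end (39.9%, 38.5 to 41.3%), which gave a difference of 4.06 percentage points (-0.335 to 8.53) and an odds ratio of 1.18 (Fisher's exact test, adjusted p = 0.0763). Without the stretch the odds ratio was 1.54 (51.1% against 40.5%, Fisher's exact test, adjusted p = 2.86e-05). Here too a rise was fixed in advance, as the stretch held 13.96% of the domains and 1.47% of the narrower regions. With H2Aub1 replicate 2 as the only list the direction turned (odds ratio 0.666, Fisher's exact test, adjusted p = 0.0680), and without the stretch as well it was 1.78 (54.8% against 40.6%, adjusted p = 0.0540). Within 5 Mb of an end lay 34.5% of the domains and 28.4% of the narrower regions (odds ratio 1.33, Fisher's exact test, adjusted p = 0.00403), and within 20 Mb 53.4% and 53.9% (odds ratio 0.981, adjusted p = 0.854). Even closer to the ends, within 2 Mb, lay 103 domains (19.4%), 702 narrower regions (14.5%) and 13 wide regions with RING1B (6.47%). The domain nearest to an end, on chromosome 17 from 28128 to 34348 (6221 bp, scores 1218.9 and 471.27), had its midpoint 31238 bp from the tip. The 233 near-end domains had median scores of 858 in replicate 1 and 250 in replicate 2, and the 297 others 671 and 201. Without the stretch, which holds 74 of those 297, the remaining 223 had medians of 805 and 228. For scale, the outer 10 Mb make up 15.3% of the autosomal length, with assembly gaps counted.

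**Figure D3:**
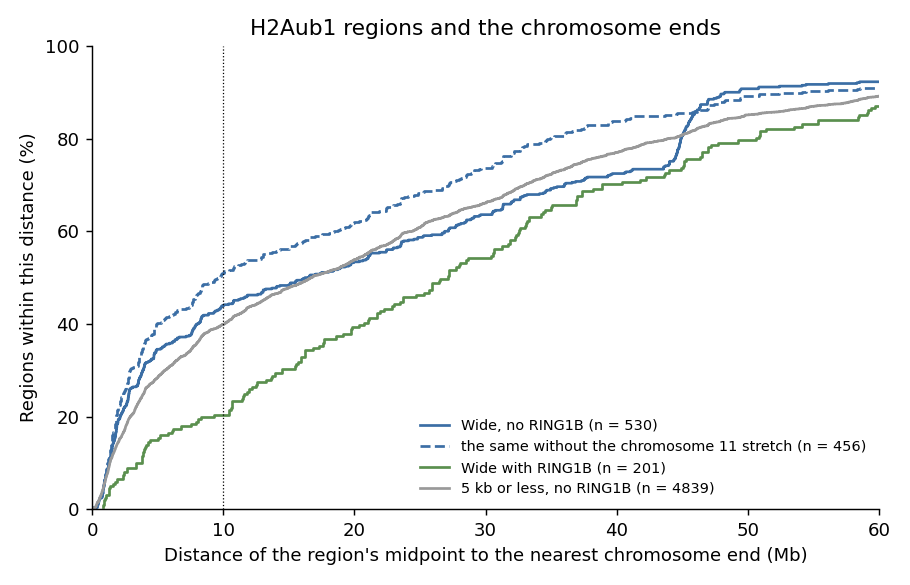
Cumulative share of regions in % (vertical axis) by distance of the midpoint to the nearest chromosome end in Mb (horizontal axis, shown to 60 Mb), for the domains, the domains without the chromosome 11 stretch, wide regions with RING1B and narrower regions without RING1B. At 10 Mb (dotted line) the curves stand at 44.0%, 51.1%, 20.4% and 39.9%, and the step of the solid blue curve near 45 Mb is the chromosome 11 stretch.

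Most domains lay in light cytogenetic bands. Bands that stain weakly with Giemsa are in general rich in genes and GC bases, and dark bands are poor in both. In light (Giemsa-negative) bands, which make up 42.4% of the autosomal length, lay 401 of the 530 domains (75.7%, 71.8 to 79.1%), against 128 of the 201 wide regions with RING1B (63.7%, 56.8 to 70.02%). The odds ratio was 1.77 (Fisher's exact test, p = 0.00160, adjusted p = 0.00320), and 1.55 without the stretch of chromosome 11 (71.9% against 62.3%, adjusted p = 0.0261). Here too neighbouring regions are not independent, so intervals and p-values cover counting error over regions only. Nor is this separate from the position near ends, as the tip bands 8q24.3, 4p16.3, 16p13.3 and 20q13.33, which hold many domains, are light. The darkest bands (gpos100), 16.0% of the length, held 2 domains. Of the narrower regions without RING1B, 69.5% lay in light bands, and the odds ratio of 1.36 (Fisher's exact test, adjusted p = 0.00423) became 1.14 without the stretch (adjusted p = 0.242). The odds ratio against wide regions with RING1B no longer passed with replicate 2 alone and the stretch left out (2.17, Fisher's exact test, adjusted p = 0.0982). Nor did it pass with a peak over 5 kb required in each replicate and the stretch left out (2.72, Fisher's exact test, adjusted p = 0.0589). In the stretch, 72 of 74 domains fell in 11p11.2, a light band. Leaving out the stretch could therefore only lower the share of domains in light bands.

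Domains occurred on all 22 autosomes, but unevenly. Chromosome 11 held 98 (0.726 per Mb), of which 24 lay outside the stretch, and chromosomes 1 and 8 held 48 each. Per Mb, chromosome 20 followed with 28 domains (0.444 per Mb), then chromosome 16 with 30 (0.332) and chromosome 8 (0.328). Chromosomes 13 and 18 held 3 and 5. Near-end position also differed by chromosome: 22 of the 23 domains of chromosome 4 and 28 of the 30 of chromosome 16 lay in the outer 10 Mb, against 1 of 21 on chromosome 15 and 0 of 14 on chromosome 3. Over the 22 autosomes the density of domains outside the stretch went with the density of protein-coding genes (Spearman rho = 0.580, Pearson r = 0.356). For chromosome 11 the 24 domains outside the stretch were divided by its whole length, the stretch included. Narrower RING1B-free regions went with gene density more closely (0.815 and 0.804), while wide regions with RING1B showed values of -0.0130 and -0.286. These values are descriptions over 22 chromosomes. The gene counts came from GRCh38 and the lengths from hg19.

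**Figure D4:**
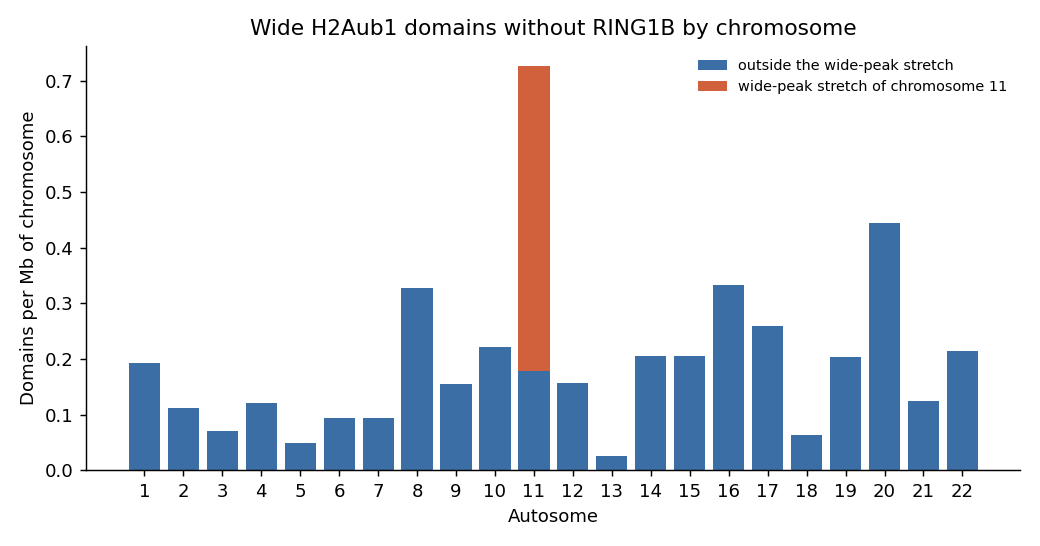
Number of domains per Mb of chromosome (vertical axis, from 0) for the 22 autosomes (horizontal axis), with domains of the chromosome 11 stretch stacked in orange. Chromosome 11 stands highest at 0.726 per Mb, followed by chromosome 20 at 0.444. Its domains outside the stretch come to 0.178 per Mb of the whole chromosome, with the length of the stretch still counted.

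A few bands held many of the domains. Of 811 autosomal bands, 189 held at least 1 domain and 96 held exactly 1, whereas the 5 fullest held 150 domains (28.3%). Band 11p11.2 held 72 (13.6 per Mb, 639 kb in all) beside 6 wide regions with RING1B and 46 narrower RING1B-free regions. Band 8q24.3, at the tip of chromosome 8, held 32 domains from 140710274 to 145167005, with widths of 5123 to 16274 bp. Beside them lay 6 wide regions with RING1B and 123 narrower RING1B-free regions. Bands 4p16.3, 16p13.3 and 20q13.33, also at chromosome tips, held 16, 15 and 15 domains. Beside these lay 2, 0 and 0 wide regions with RING1B and 61, 65 and 97 narrower RING1B-free regions. Domains in 4p16.3, 16p13.3 and 20q13.33 had median replicate 1 scores of 889, 922 and 1033, above the 222 of the domains in 11p11.2. Their median replicate 2 scores of 291, 263 and 250 were above 135. The bands were singled out by their counts, and no test was run on them.

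Many domains sat close together in chains. With gaps of at most 50 kb, 258 domains (48.7%) formed 76 chains of 2 or more, and outside the stretch of chromosome 11 it was 188 of 456 (41.2%). No such share is given for the comparison classes, so these are descriptions. The longest chain held 22 domains over 463 kb of 11p11.2 (44727920 to 45190724), 47.0% of which was domain, and its span held 1 RING1B peak, of replicate 2. Outside that stretch, 8 domains lay on chromosome 16 from 1031658 to 1152817 (16p13.3), each 5069 to 6620 bp wide, with replicate 1 scores of 347 to 1089 and replicate 2 scores of 126 to 356. A chain of 7 lay on chromosome 4 from 1490180 to 1581975 (4p16.3), with 1 EWSR1-FLI1 peak between its members and widths of 5281 to 8935 bp. The densest of these, 6 domains on chromosome 3 from 122637869 to 122717943 (3q21.1), filled 64.5% of 80.1 kb. Its domains at 122655732 and 122705210 measured 12298 and 12734 bp, with scores of 1367.17 and 596.6 and of 834.94 and 220.32, and its nearest RING1B peak was 758713 bp away. Another chain of 6, on chromosome 11 from 8249908 to 8380418 (11p15.4, 131 kb), held 1 RING1B peak of replicate 2 and 1 EWSR1-FLI1 peak in its span. In 8q24.3 a chain of 6 ran on chromosome 8 from 143527973 to 143628797 (101 kb, 48.6% of it domain), with widths of 6074 to 11751 bp. The chains on chromosomes 16, 3 and 8 held no RING1B or EWSR1-FLI1 peak of any list in their spans.

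RING1B was seldom directly beside a domain or a narrower RING1B-free region. The median gap to the nearest RING1B peak of either replicate was 147 kb, 4 domains had one within 1 kb, 57 (10.8%) within 10 kb and 143 (27.0%) within 50 kb. For the narrower RING1B-free regions the median gap was 141 kb, and 11.4% and 27.2% had a RING1B peak within 10 and 50 kb. At shorter distances the shares differed more. Within 1 kb they were 0.755% of the domains and 2.89% of the narrower regions, and within 5 kb 4.91% and 7.60%. The absence of overlap was part of how both classes were chosen, so no test was run. Of the 143 domains with RING1B within 50 kb, 54 had a peak of both replicates in that distance, 14 of replicate 1 only and 75 of replicate 2 only. Replicate 2 has the longer list (3945 peaks against 2573). When all reproducible H2Aub1 regions with gaps of at most 10 kb were chained, 65 domains (12.3%, 9.74 to 15.3%) lay in a chain whose span held a RING1B peak.

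The domains nearest to RING1B show how fine the limit of the class is. On chromosome 6 the domain from 108480979 to 108492625 (11647 bp, 6q21, scores 1857.42 and 282.26) began 109 bp after a replicate 2 RING1B peak of 3217 bp (score 424.72) and 1216 bp after a replicate 1 peak (score 117.2). On chromosome 17 the domain from 48046619 to 48051900 (5282 bp) lay 260 bp from a replicate 1 peak with a score of 57.98. On chromosome 2 the domain from 171567138 to 171575370 (8233 bp, scores 1827.6 and 276.53) lay 430 and 586 bp from weak RING1B peaks of both replicates (scores 60.21 and 63.95). At the other extreme, 10 domains had no RING1B peak within 1 Mb. The most distant lay on chromosome 2 from 136872177 to 136878204 (6028 bp, scores 915.14 and 138.51), 2295912 bp from RING1B but 1111 bp from an EWSR1-FLI1 peak. It was followed by a domain near the end of chromosome 10 (530558 to 535726, 5169 bp, 2139774 bp away) and one on chromosome 7 (143055743 to 143061212, 5470 bp, 1804298 bp away).

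**Figure D5:**
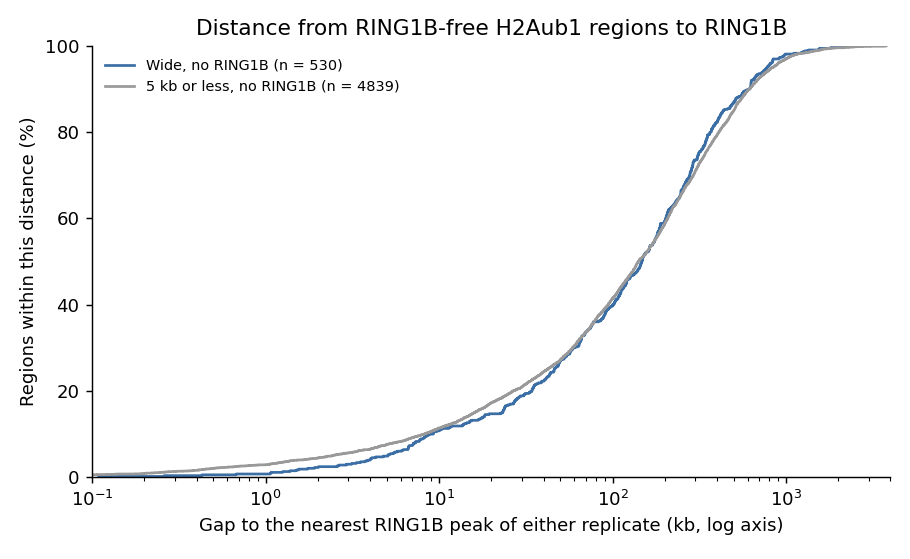
Cumulative share of regions in % (vertical axis) by the gap to the nearest RING1B peak of either replicate in kb (horizontal log axis), for the 530 domains and the 4839 narrower H2Aub1 regions without RING1B. From 10 kb on both curves run close together, at 27.0% and 27.2% within 50 kb. Within 1 kb they stand at 0.755% and 2.89%.

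The gap to EWSR1-FLI1 was measured to a single list of 2145 peaks, fewer than in either RING1B list, so it is not comparable with the gap to RING1B. Its median was 359 kb, 24 domains (4.53%) had an EWSR1-FLI1 peak within 10 kb and 71 (13.4%) within 50 kb, beside 6.16% and 14.1% of the narrower regions. The domain with the highest mean score percentile, on chromosome 10, lay 1457 bp from one. The closest approach, 388 bp, was on chromosome 6 at 24530589 to 24535942 (5354 bp, scores 651.44 and 183.01), where RING1B was 147493 bp away. Both proteins were close on chromosome 8 at 37553273 to 37559240 (5968 bp, scores 333.63 and 323.89), with RING1B peaks of both replicates 676 and 684 bp and EWSR1-FLI1 680 bp away. The same held on chromosome 1 at 113335413 to 113349376, a domain of 13964 bp with scores of 2149.37 and 948.74, where RING1B lay 1074 bp and EWSR1-FLI1 1140 bp away. These domains were picked for their distances, once those were known.

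For comparison, the widest regions with RING1B measured 29707 bp on chromosome 9 (126757807 to 126787513, scores 630.11 and 890.54), 28655 bp on chromosome 11 (72003101 to 72031755, 1732.34 and 975.59) and 25260 bp on chromosome 16 (86526188 to 86551447, 228.45 and 877.5). None of these 3 lay in the stretch of chromosome 11, whereas the 3 widest domains did. Of the wide regions with RING1B, 10 of 201 (4.98%) lay in it.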

How the data were processed

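Peak lists of ChIP-seq in A673 cells were used for 5 of 18 samples, 1 list per sample, and the other 13 were not analysed here. Per the submitters' processing notes, the authors aligned reads with Bowtie, and the notes name hg19 and, for RING1B and H2Aub1, also mm9, whose use is not stated. Peak names begin with MACS. Not given in the sources used here are versions, filters and any use of input. The authors' deposited score per peak has no stated scale and served only to describe and rank peaks within a list. Starts are written 1-based, in hg19.

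Peaks were merged at 1 shared bp in Python 3.11.15 (pandas 2.3.3). Shares were compared by two-sided Fisher's exact test (scipy 1.17.1), adjusted over 4 tests, with Wilson intervals at 95%. The merging and tests were checked on simulated data. Cytogenetic bands of hg19 came from the circlize package, chromosome lengths from GenomeInfoDb, and counts of protein-coding genes per chromosome from a RefSeq table of GRCh38. No hg19 genome sequence or annotation was used, so genes and sequences are not named.

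The members and comparisons were chosen with earlier results of these data known. Regions were named by rule: the 10 widest, the 5 of highest mean score percentile, 3 on each side of 5 kb, 3 closest to and 3 farthest from RING1B, the fullest bands and chains (gaps up to 50 kb), and the 3 widest regions with RING1B. Regions outside that rule were picked by their values, as the text says. Alternatives varied the width threshold, merging, score, replicates, RING1B and EWSR1-FLI1 criteria, chromosomes and the position limits.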

Additional observations from a re-analysis of the deposited data

How the results depend on the processing

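The number of domains was 889 with a width threshold of 4 kb and 139 with 8 kb. Requiring a peak over 5 kb in each replicate left 84, and 45 outside the stretch of chromosome 11. Leaving out 1 H2Aub1 or RING1B replicate gave 111 to 565 domains, the lowest without H2Aub1 replicate 1. In these the share near chromosome ends was 30.6 to 43.4%, its odds ratio 1.35 to 3.49 against wide regions with RING1B and 0.666 to 1.17 against narrower regions. The share in light bands was 75.7 to 88.3%, with odds ratios of 1.89 to 3.41 and 1.39 to 3.33.

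No replicate block could be entered in a test over regions, so lists paired by replicate number were analysed number by number. Replicate 1 gave 492 domains and replicate 2 115. With replicate 2, 30.4% lay near ends (odds ratios 1.28, Fisher's exact test, adjusted p = 0.589, and 0.665, adjusted p = 0.0590) and 87.8% in light bands. With replicate 1, 39.8% lay near ends (odds ratio 2.73 against wide regions with RING1B).

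Other limits changed single values. With an 8 kb threshold 82.7% lay in light bands. Limits of 5 and 20 Mb put 34.5% and 53.4% near ends, with odds ratios of 1.33 and 0.981 against narrower regions. That odds ratio passed the threshold with no RING1B within 10 kb (1.22), with chromosome X (1.28), and without chromosome 3 (1.21), 7 (1.21), 11 (1.49), 15 (1.21), 17 (1.22) or 19 (1.21). Leaving out 1 chromosome at a time gave 2.81 to 3.63 against wide regions with RING1B, and for light bands 1.60 to 1.94 and, against narrower regions, 1.196 (chromosome 11) to 1.45. Bounds for the stretch set by the widest RING1B regions (26586188 to 43667084) removed 5 domains. Odds ratios near ends were then 2.997 against wide regions with RING1B and 1.19 against narrower regions (Fisher's exact test, adjusted p = 2.13e-08 and 0.0679). For light bands they were 1.82 and 1.36 (Fisher's exact test, adjusted p = 0.00209 and 0.00475).

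The alternatives that follow, and those leaving out chromosomes, were chosen after seeing the data. Without the stretch of chromosome 11, 51.1% lay near ends, with an odds ratio of 1.54 against narrower regions, and that for light bands was 1.14. A peak over 5 kb in each replicate gave 33.3% near ends, odds ratios of 1.57 and 0.753, and 90.5% in light bands. Also without the stretch, it gave 62.2%, 2.42 against narrower regions, 82.2% in light bands, and odds ratios for those of 2.72 and 2.06 (Fisher's exact test, adjusted p = 0.0589 and 0.0728, no longer past the threshold). Without the stretch and H2Aub1 replicate 1, 62 domains remained, 54.8% near ends, with odds ratios for light bands of 2.17 and 1.70 (Fisher's exact test, adjusted p = 0.0982 for both). Without the stretch and replicate 2, 49.6% lay near ends (1.59 against narrower regions) and 71.6% in light bands (1.18). The cause of these changes was not tested. Without read counts, depth and the limit for a missing RING1B peak are unknown.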

Other observations

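On chromosome X, 341 reproducible H2Aub1 regions were found, of which 27 were wider than 5 kb and free of RING1B and EWSR1-FLI1 peaks. They entered a comparison only in the alternative that includes chromosome X.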
